A study of Mus musculus with 8 samples.

Results

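AP-1 is a family of dimeric transcription factors, and 9 genes of its subunits were followed here in annulus fibrosus (AF) tissue of *Abcc6*-null mice: *Fos*, *Fosb*, *Fosl1*, *Fosl2*, *Jun*, *Junb*, *Jund*, *Atf3* and *Batf*. They were taken by gene symbol from the annotation of the Mouse Clariom S array, on which each has 1 probe set, so that 9 of 22206 probe sets are described and isoforms of a gene could not be told apart. The AF, the fibrous ring of the intervertebral disc, was dissected from lumbar discs, which were pooled within each animal and put on 1 array. The 4 WT animals are numbered 1, 2, 3 and 5 and the 4 KO animals 6, 7, 8 and 9, and all were females of 7 months. KO mice carry a global deletion of *Abcc6*, the transporter gene that is mutated in pseudoxanthoma elasticum, in C57BL6J mice, and no group was treated. The mice are the replicates.

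FOS proteins (FOS, FOSB and the products of *Fosl1* and *Fosl2*) form dimers with JUN proteins (JUN, JUNB and JUND) through a leucine zipper and bind the sequence TGACTCA. *Fos*, *Fosb*, *Jun*, *Junb* and *Atf3* are immediate-early genes, whose transcripts rise quickly after growth factors, mechanical load or injury and then decay, whereas *Jund* is transcribed more steadily. In the mouse skeleton, *Fos* is required for osteoclasts to form, and isoforms of *Fosb* and the product of *Fosl1* raise bone formation when overexpressed.

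Of the 9 subunits, *Fosb* and *Atf3* were lower in KO mice at the cutoff that the study used (fold change ≥ 1.75 with an unadjusted p ≤ 0.01). *Fosb* was 6.06-fold and *Atf3* 5.28-fold lower. *Fos*, *Fosl2*, *Jun* and *Junb* had mean differences beyond 1.75-fold in the same direction without reaching the cutoff (6 of 9 members with these, against 5.52% of all probe sets), *Fosl1* and *Jund* differed by less, and *Batf* had a higher mean in KO mice. Thus 2 of 9 members were lower at the cutoff, where 0.297% of all probe sets were lower and 0.428% higher, and 8 of 9 had a lower mean in KO mice, as had 47.6% of all probe sets. The median log2 fold change of the members was −1.23, against 0.03 over all probe sets tested. No member had an adjusted p under 0.05 in limma, nor did any of the 22206 probe sets (0, or 0.0%, with 1172, or 5.28%, at an unadjusted p under 0.05). WT mouse 3 was the WT array with the highest mean over the 9 members, and it had the highest value of all mice in 8 of them. Without that mouse the median of the members was −0.59, and *Fosb* was the 1 member at the cutoff.

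**Figure D1:**
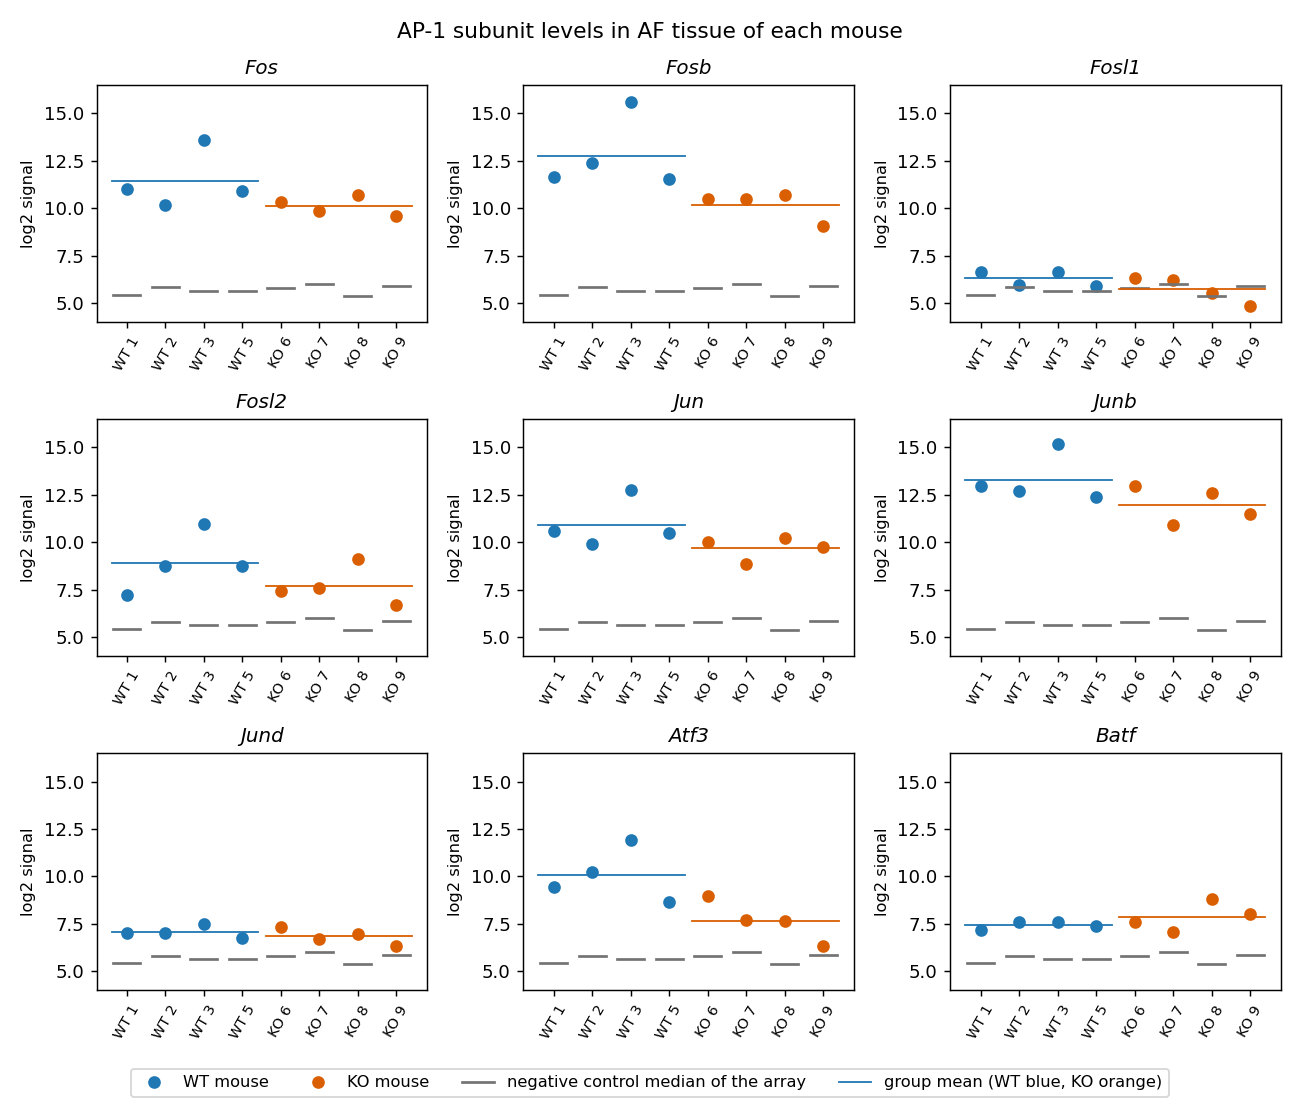
Log2 signal of the 9 AP-1 subunits (y axis) in each mouse (x axis), with WT mice in blue, KO mice in orange, coloured lines at the group means and grey ticks at the negative control median of the same array. WT mouse 3 has the highest point in every panel except *Batf*, and the genotypes do not overlap for *Fosb*.

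Arrays measure a probe set against itself across mice, so levels are not compared between genes. The array medians of the tested probe sets lay between 6.32 and 6.50 log2, and the medians of the negative control probe sets, which mark background, between 5.40 and 6.0 log2. All members except *Fosl1* lay above this background in all 8 mice. *Abcc6* itself was below it in 7 of 8 arrays (WT mean 5.15 ± 0.13 log2, KO mean 5.59 ± 0.47 log2, SD, n = 4 each), so its probe set does not check the genotypes. A control contrast, the median of the positive minus that of the negative control probe sets, ran from 3.17 to 4.28 log2 in WT and from 2.37 to 4.30 log2 in KO mice. Of 16 AF and cartilage markers, 13 had means above background, and their mean signal was 12.53 log2 in WT mouse 3, 10.90 to 11.30 log2 in the other WT mice and 10.04 to 11.68 log2 in KO mice, so that this list too was highest in WT mouse 3.

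*Fosb*, which encodes a partner of the JUN proteins and has a truncated long-lived isoform, had a log2 signal of 11.62 in WT mouse 1, 12.37 in mouse 2, 15.58 in mouse 3 and 11.52 in mouse 5. In the KO group it was 10.48 in mouse 6, 10.48 in mouse 7, 10.68 in mouse 8 and 9.06 in mouse 9. Every KO mouse lay below every WT mouse, which held for no other member and for 0.973% of all probe sets. The WT mean of 12.78 ± 1.91 and the KO mean of 10.17 ± 0.75 (log2, SD, n = 4 each) differed by −2.60 on the log2 scale (standard error 0.81, 95% confidence interval −4.40 to −0.80). Its unadjusted p was 0.00896 and its adjusted p = 0.848 in limma. A 2-sided exact permutation test, which has 35 splits to draw on, gave p = 0.0286, the smallest that 4 mice against 4 allow. WT mouse 3 lay 3.74 log2 above the mean of the other WT mice. Without it the WT mean was 11.84 ± 0.47 log2 (SD, n = 3) and the log2 fold change −1.66 (standard error 0.45, unadjusted p = 0.00450 and adjusted p = 0.997 from limma), where 0.0901% of all probe sets were lower at the cutoff.

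*Atf3*, a stress-induced factor that dimerizes with JUN proteins and can repress transcription, had a log2 signal of 9.43 in WT mouse 1, 10.26 in mouse 2, 11.94 in mouse 3 and 8.63 in mouse 5. Its KO values were 8.97 in mouse 6, 7.71 in mouse 7, 7.64 in mouse 8 and 6.33 in mouse 9. KO mice 7, 8 and 9 lay below all WT mice, and KO mouse 6 lay above WT mouse 5, so that the genotypes overlapped by that pair. The means of 10.06 ± 1.42 for WT and 7.66 ± 1.08 for KO (log2, SD, n = 4 each) differed by −2.40 (standard error 0.71, 95% confidence interval −3.98 to −0.82, unadjusted p = 0.00680 and adjusted p = 0.848 from limma). The exact permutation test gave p = 0.0571. Without WT mouse 3 the log2 fold change was −1.77 (standard error 0.61) with an unadjusted p of 0.0159 in limma, which no longer reached the cutoff. In KO mouse 9 *Atf3* was 0.46 log2 above the negative control median of its array, close to background.

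**Figure D2:**
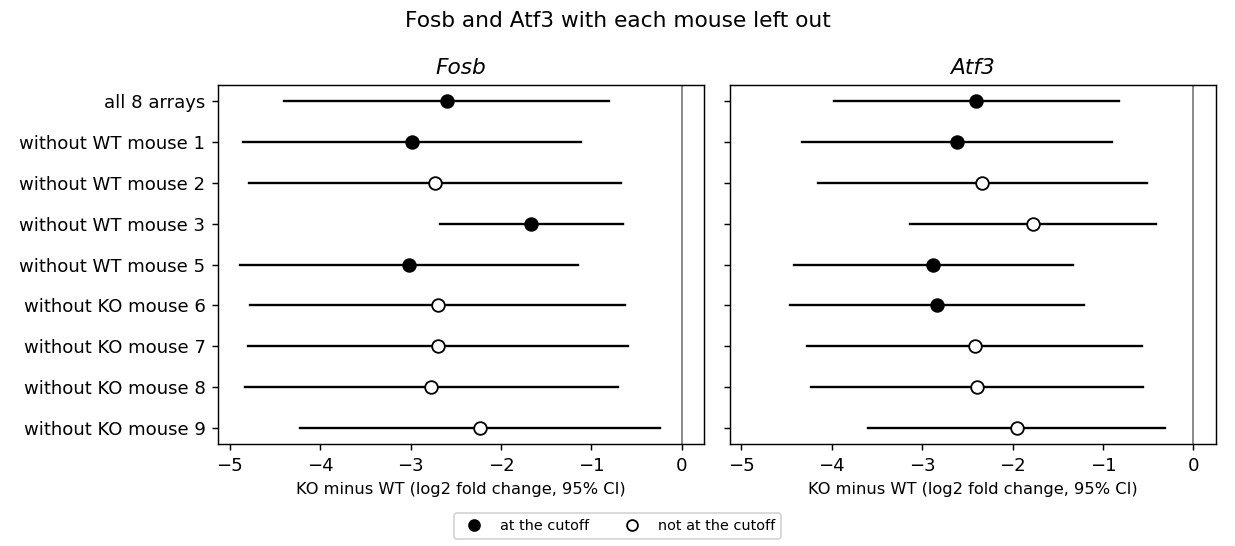
KO minus WT log2 fold change (x axis) of *Fosb* and *Atf3* in limma with all 8 arrays and with each mouse left out in turn (y axis), where bars are 95% confidence intervals and filled points reached the cutoff. All estimates are below 0, from −3.02 to −1.66 for *Fosb* and from −2.88 to −1.77 for *Atf3*.

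With a mouse left out, both genes kept a lower mean and intervals below 0, but not always the cutoff. *Fosb* did not reach it without WT mouse 2 (−2.73 log2) or without KO mouse 6 (−2.70), 7 (−2.70), 8 (−2.77) or 9 (−2.23). *Atf3* did not reach it without WT mouse 2 (−2.34 log2), WT mouse 3, KO mouse 7 (−2.42), KO mouse 8 (−2.39) or KO mouse 9 (−1.96). With the control contrast as a covariate, the estimate was −2.19 log2 for *Fosb* (standard error 0.95, unadjusted p = 0.0475 from limma). For *Atf3* it was −2.22 log2 (standard error 0.86, unadjusted p = 0.0297 from limma). The adjusted p from limma was 0.99987 for both, and for *Batf*. For the others it was −0.70 for *Fos*, −0.68 for *Fosl2*, −0.61 for *Jun*, −0.67 for *Junb*, −0.53 for *Fosl1*, −0.10 for *Jund* and 0.80 for *Batf* (unadjusted p = 0.0497 from limma), and the median of the members went from −1.23 to −0.67. Then 0 members were at the cutoff, which 0.32% of all probe sets reached and 0.18% reached with lower values in KO mice.

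The promoters of both genes and of 2 immediate-early partners are shown because cyclic AMP responsive factors and AP-1 itself bind related letters there. The capitals mark the CRE half-site TGACG on either strand (CGTCA when read on the other strand). Each line gives the 120 bases before the RefSeq start, 5′ to 3′ on the strand of the gene, in GRCm38.p6. *Fosb* is at chr7:19310046-19310165 (minus strand), *Atf3* at chr1:191183334-191183453 (minus strand), *Fos* at chr12:85473770-85473889 (plus strand) and *Junb* at chr8:84978749-84978868 (minus strand).
Fosb: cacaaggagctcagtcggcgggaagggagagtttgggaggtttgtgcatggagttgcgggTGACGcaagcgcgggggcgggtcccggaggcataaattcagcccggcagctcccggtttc
Atf3: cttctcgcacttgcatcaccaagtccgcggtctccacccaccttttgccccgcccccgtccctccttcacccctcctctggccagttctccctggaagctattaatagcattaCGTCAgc
Fos: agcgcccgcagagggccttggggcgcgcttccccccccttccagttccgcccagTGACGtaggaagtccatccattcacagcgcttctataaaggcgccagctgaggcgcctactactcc
Junb: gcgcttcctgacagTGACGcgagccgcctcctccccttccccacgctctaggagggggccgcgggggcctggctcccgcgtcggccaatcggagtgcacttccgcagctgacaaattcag
The half-site begins 60 bases before the start in *Fosb*, 7 in *Atf3*, 66 (and again 129, outside the stretch shown) in *Fos* and 106 in *Junb*.

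Over the 250 bases before the start, TGACG was found on either strand in 5 of the 8 members with a promoter entry (*Fosb*, *Atf3*, *Fos*, *Junb* and *Batf*) and in 17.8% of all 32851 promoters of that length. *Batf*, which carries it, did not share the direction of the other carriers. The full CRE, TGACGTCA, which contains the half-site, was in 0 of 8 (1.55% of all promoters), the AP-1 site TGACTCA in 0 of 8 (4.46%) and the CArG box of serum response factor in 0 of 8 (1.47%). TATAAA was in *Fos* only (12.4% of all promoters). *Fosl1* has no entry. These matches describe the letters of the windows. Bases farther from the start were not searched, so a count of 0 does not show that a gene lacks a CArG box or another site.

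*Fos*, the prototype of the family, had a log2 signal of 10.99 in WT mouse 1, 10.19 in mouse 2, 13.57 in mouse 3 and 10.91 in mouse 5. In KO animals it was 10.35 in mouse 6, 9.84 in mouse 7, 10.67 in mouse 8 and 9.58 in mouse 9. WT mouse 3 stood 2.58 log2 above the next WT mouse, and WT mouse 2 lay within the range of the KO mice. The log2 fold change was −1.31 (standard error 0.64, 95% confidence interval −2.72 to 0.10, unadjusted p = 0.0661 from limma), and −0.59 (standard error 0.38, 95% confidence interval −1.43 to 0.26) without WT mouse 3.

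*Fosl2*, which encodes FRA-2, had WT values of 7.22, 8.75, 10.98 and 8.75 log2 and KO values of 7.44, 7.61, 9.10 and 6.70 log2, in the same order of mice. WT mouse 1 was lower than 3 of the KO mice, and KO mouse 8 was higher than all WT mice except WT mouse 3. The log2 fold change went from −1.21 (95% confidence interval −2.84 to 0.42 from limma) to −0.52 without WT mouse 3. *Fosl1*, which encodes FRA-1, lay between 4.84 and 6.66 log2, from 1.04 log2 below to 1.23 log2 above the negative control median of its array. Its log2 fold change was −0.57 (95% confidence interval −1.42 to 0.27 from limma) near background, and −0.28 without KO mouse 9.

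*Jun*, the central partner of the FOS proteins, had WT values of 10.62, 9.89, 12.74 and 10.46 log2 and KO values of 9.996, 8.84, 10.23 and 9.76 log2, again in that order. WT mouse 3 was the highest by 2.12 log2, and WT mouse 2 lay below KO mice 6 and 8. The log2 fold change was −1.23 (standard error 0.57, 95% confidence interval −2.50 to 0.05, unadjusted p = 0.0578 from limma), and −0.62 (standard error 0.40) without WT mouse 3.

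*Junb*, a JUN protein that can hold back JUN-driven transcription, had WT values of 12.98, 12.69, 15.17 and 12.37 log2 and KO values of 12.96, 10.90, 12.59 and 11.47 log2. KO mouse 6 lay as high as WT mouse 1. The log2 fold change was −1.32 (95% confidence interval −2.75 to 0.11, unadjusted p = 0.0663 from limma), and −0.70 without WT mouse 3. *Jund* covered a narrow range of 6.34 to 7.47 log2, only 0.46 to 1.83 log2 above the negative control median of its array. So near background, a narrow range and a small difference say little about its transcription. Its genotype means of 7.07 ± 0.30 and 6.84 ± 0.41 log2 (SD, n = 4 each, WT first) differed by −0.23 log2 (95% confidence interval −0.89 to 0.44 from limma). Leaving out WT mouse 3 gave −0.09, KO mouse 9 −0.06 and KO mouse 6 −0.38.

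*Batf*, a partner of JUN proteins best known in lymphocytes, was the member with the opposite sign. Its WT values were 7.16, 7.59, 7.59 and 7.39 log2 and its KO values 7.58, 7.04, 8.79 and 8.0 log2. KO mice 8 and 9 were above all WT mice and KO mouse 7 was below all of them. The log2 fold change was 0.42 (95% confidence interval −0.40 to 1.25, unadjusted p = 0.279 from limma), and it was 0.11 without KO mouse 8 and 0.69 without KO mouse 7.

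**Figure D3:**
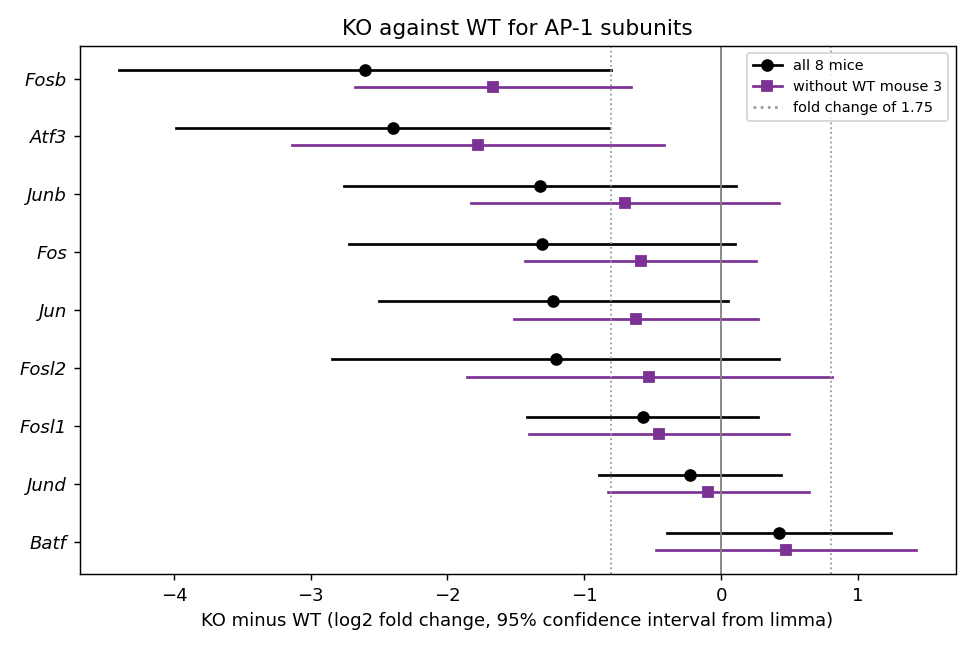
KO minus WT log2 fold change with 95% confidence intervals from limma (x axis) for each AP-1 subunit (y axis), with all 8 mice (black circles) and without WT mouse 3 (purple squares), where dotted lines mark a fold change of 1.75. Only the intervals of *Fosb* and *Atf3* lie wholly below 0, and each estimate except that of *Batf* moves toward 0 without WT mouse 3.

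WT mouse 3 was singled out by its mean over these same members, so the counts of members high in it describe that choice and support nothing. It was at least 1 log2 above every other WT mouse in 6 of 9 members (*Fos*, *Fosb*, *Fosl2*, *Jun*, *Junb* and *Atf3*), as in 2.52% of all probe sets, and it was the highest of all 8 mice in 8 of 9 members, as in 13.6% of all probe sets. The mean over the 9 members was 11.30 log2 in WT mouse 3, 9.19 to 9.42 log2 in the other WT mice and 8.01 to 9.14 log2 in KO mice. Without WT mouse 3, 8 of 9 members still had a lower mean in KO mice (48.1% of all probe sets), 2 of 9 by more than 1.75-fold in place of 6 (4.71% of all probe sets), and the median log2 fold change of the members was −0.59, against 0.02 over all probe sets. As tissue was measured in bulk, fewer cells with AP-1 transcripts and less transcript per cell cannot be told apart.

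The difference in *Fosb* was set against that of the other subunits by taking *Fosb* minus the other gene within each array. *Fosb* was picked because it had the largest change in earlier results of these same data, so this is a description and not a blind test. The KO minus WT value of this difference was −3.02 log2 against *Batf* and −2.37 log2 against *Jund*, with all 4 KO mice below all WT mice in both (exact permutation test, p = 0.0286 each). After adjustment over the 8 pairs these had an adjusted p = 0.114, and 0 of 8 pairs were under 0.05 (2 of 8 before adjustment). Against *Fos* the difference was −1.29 (p = 0.0857, adjusted p = 0.114, exact permutation test), and against *Atf3* it was −0.20 (p = 0.686, exact permutation test). As 0.0286 is the smallest p that 4 mice against 4 allow, 1 pair with no overlap cannot pass the adjustment alone. The adjusted result was thus nearly fixed in advance, and whether *Fosb* differs from the other members was not decided.

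Members followed each other over the 8 mice to different degrees. Of 36 pairs, *Fos* and *Jun*, which form the classical dimer, were the only pair to pass with both measures (Pearson's r = 0.960, permutation p = 0.00139 and 0.0250 after adjustment; for Spearman's rho of 0.976, permutation p = 0.000400 and 0.0143 after adjustment). Their r was 0.944 without WT mouse 3 and KO mouse 9, the mice farthest from the median of *Fos*, and 0.815 without WT mouse 3 alone. *Fosb* and *Atf3* had r = 0.942 (permutation p = 0.000500, adjusted p = 0.0179) and rho = 0.833 (permutation p = 0.0154, adjusted p = 0.131). Their r was 0.819 without WT mouse 3 and KO mouse 9, and 0.9135 without WT mouse 3 alone. In all, 9 pairs had an adjusted p under 0.05 for r and 1 for rho. For *Fosb* and *Fos*, r = 0.915 (permutation p = 0.00878, adjusted p = 0.0479; rho = 0.714, permutation p = 0.0576, adjusted p = 0.188) went to 0.272 without WT mouse 3 and KO mouse 9. Leaving out the extremes of *Fos* also narrows its range, which can lower r, though *Fos* and *Jun* kept 0.944 without the same mice. The part of the narrower range was not tested. For *Fosb* and *Fos* r was 0.623 without WT mouse 3 alone, and 0.888 over all mice with the genotype means taken off.

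The control contrast moved in the same direction as several members. Its r was 0.732 with *Jun* (permutation p = 0.0176, adjusted p = 0.121 over 9 members; rho = 0.810, permutation p = 0.0218, adjusted p = 0.126) and 0.677 with *Fos* (permutation p = 0.0309, adjusted p = 0.121; rho = 0.786, permutation p = 0.0279, adjusted p = 0.126). With *Fosb* it was 0.531 (permutation p = 0.172, adjusted p = 0.310; rho = 0.571, permutation p = 0.151, adjusted p = 0.340). Without KO mice 7 and 8, the farthest from the median contrast, r was 0.761 for *Jun*, 0.776 for *Fos* and 0.706 for *Fosb*. Within genotypes *Jun* had r = 0.680 in WT and 0.806 in KO mice, and *Fosb* 0.363 and 0.340, each over 4 mice.

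The genes most like *Fos* over the 8 mice, among 12421 named genes with a mean above background, were *Foxf1* (r = 0.994), *Xiap* (r = 0.993), *Sulf1* (r = 0.986), *Pknox2* (r = 0.982) and *Csgalnact2* (r = 0.978). *Foxf1* encodes a forkhead factor, *Xiap* an inhibitor of caspases and *Sulf1* a heparan sulfatase. Those most like *Fosb* were *Adamts1*, a protease of matrix proteoglycans (r = 0.975), *Emp1* (r = 0.966), the actin cross-linker *Actn4* (r = 0.961), the EGF receptor inhibitor *Errfi1* (r = 0.961) and the zinc finger factor *Egr1* (r = 0.960). All of these are highest in WT mouse 3, which weighs on each value. Without that mouse r was 0.885 to 0.972 for the genes like *Fos* and 0.860 to 0.939 for those like *Fosb*. *Jun* ranked 16 among the genes like *Fos*, and *Atf3* ranked 12 among those like *Fosb*.

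Other genes of the pathway were read from 6 lists with 116 measured genes, of which 3 were lower and 0 higher at the cutoff (0.297% and 0.428% of all probe sets), and 82 had a lower mean (47.6% of all probe sets). The other immediate-early genes came nearest to the AP-1 subunits. Of 32, 28 had a lower mean in KO mice, 2 were lower at the cutoff and 0 higher, with a median log2 fold change of −0.71, and 27 were highest in WT mouse 3 (13.6% of all probe sets). Only 24 of the 32 had means above background, and 5 were below it in all arrays. Those at the cutoff were *Errfi1* (−2.57 log2, standard error 0.58) and *Nr4a1*, an orphan nuclear receptor (−1.98 log2, standard error 0.57). *Rhob*, a small GTPase (−2.04 log2, standard error 0.66), and *Egr1* (−2.05 log2, standard error 0.72) did not reach it. Without WT mouse 3, 25 of 32 had a lower mean with a median of −0.33, and *Errfi1* alone was at the cutoff (−1.95).

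The kinases and factors that switch AP-1 on had 20 of 22 lower means, a median of −0.50 and 0 members at the cutoff. *Mapk8*, which encodes the JUN kinase JNK1, was nearest, at 6.25, 6.14, 6.66 and 6.18 log2 in WT and 5.77, 4.79, 5.77 and 4.90 log2 in KO mice. Its genotypes did not overlap (log2 fold change −1.0, standard error 0.32, unadjusted p = 0.0104 from limma), but only 5 of its 8 values were above background. All KO mice were below all WT mice in 0.973% of all probe sets. The same held for *Errfi1*, *Rhob* and *Dusp8* of these lists and for the nerve marker *Mbp*. Of 10 MAPK phosphatases, which switch these kinases off, 7 had lower means (median −0.68, and −0.30 without WT mouse 3). *Dusp8*, which acts on JNK and p38, was lower at the cutoff (−1.45, standard error 0.38), above background in 5 of 8 arrays, and did not reach it without WT mouse 3 (−1.35). Of the 5 genes for the turnover of JUN, 4 had lower means and 0 were at the cutoff (median −0.46, and −0.30 without WT mouse 3), with *Cops5* nearest (−0.70, standard error 0.46).

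Target genes of AP-1 and the other leucine zipper factors had medians near 0, but many of them were not detected. Only 13 of 21 targets and 18 of 26 leucine zipper factors had means above background. In each of these lists 5 genes were below background in all arrays. Such genes can hold a median near 0, so these medians do not show that detected targets were unchanged. Of 21 targets, 9 had lower and 12 higher means in KO mice, 0 were at the cutoff and the median log2 fold change was 0.07. *Plaur*, the urokinase receptor gene, had −1.51 log2 (standard error 0.59), whereas the chemokine gene *Ccl2* had 0.77 log2 (standard error 0.33) and *Timp1*, an inhibitor of metalloproteinases, 0.73 log2 (standard error 0.34). Of 26 other leucine zipper factors, 14 had lower and 12 higher means, 0 were at the cutoff and the median was −0.04. *Mafk*, a small MAF factor, was nearest with −0.76 (standard error 0.41), followed by *Nfe2l1* with −0.70 (standard error 0.38).

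**Figure D4:**
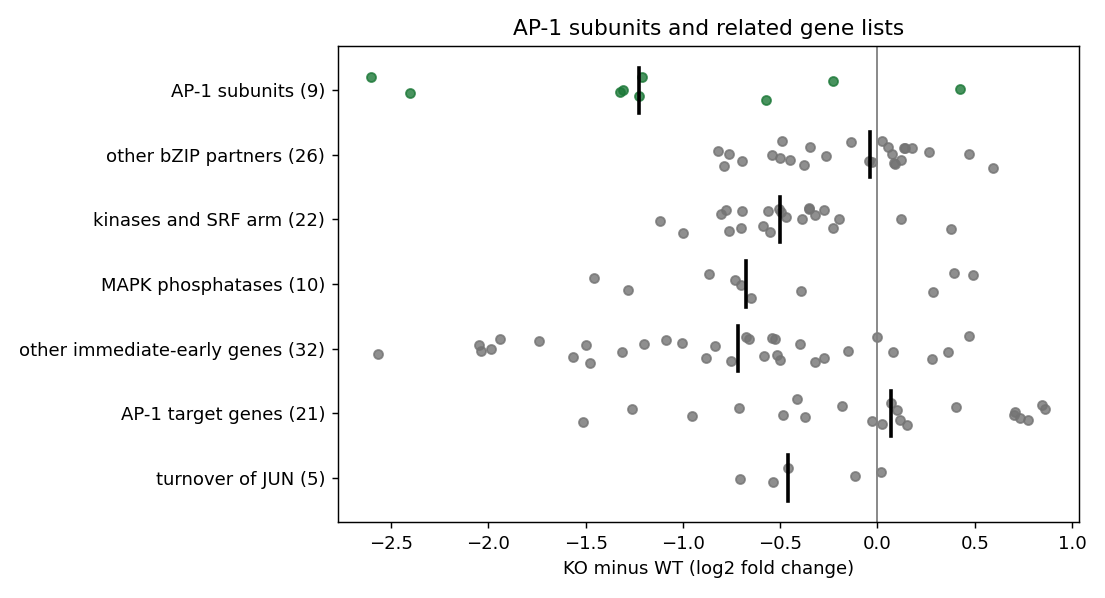
KO minus WT log2 fold change (x axis) of each measured gene of the AP-1 subunits (green) and of 6 related lists (grey), with the number of genes in brackets and black bars at the medians. Medians run from −1.23 for the AP-1 subunits and −0.71 for the other immediate-early genes to 0.07 for the AP-1 targets. Genes below background are included.

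Of the markers of the AF and of other tissue in the dissection, *Mbp* (1 of 7 nerve markers) and *Tnnt3* (1 of 12 muscle markers) were at the cutoff. Both were lower in KO mice, as were 0.297% of all probe sets at the cutoff. A lower mean in KO mice, counted below for each list, was found in 47.6% of all probe sets. The part of these tissues in the AP-1 values was not tested. AF and cartilage markers had 13 of 16 lower means in KO mice, 0 at the cutoff and a median log2 fold change of −0.55 (−0.17 without WT mouse 3), and 10 of 16 were highest in WT mouse 3. Schwann cell and nerve markers had 5 of 7 lower means with a median of −0.98 (−0.92 without WT mouse 3), and averaged 7.18 to 9.68 log2 in WT and 6.53 to 7.98 log2 in KO mice. Of these, the myelin gene *Mbp* was lower at the cutoff with and without WT mouse 3 (−1.69 and −1.88 log2). Skeletal muscle markers had 7 of 12 lower means with a median of −0.30, and averaged 6.25 to 7.57 log2 in WT and 6.22 to 6.41 log2 in KO mice. *Tnnt3*, a fast muscle troponin, was lower at the cutoff (−1.40 log2) but below background in 7 of 8 arrays, and the calcium pump gene *Atp2a1* had −2.30 log2 (standard error 0.92) without reaching it. Neutrophil markers had 11 of 12 lower means (median −0.29), with 17.52 to 18.10 log2 on average in WT and 16.09 to 18.10 log2 in KO mice. Erythroid markers had 4 of 4 higher means (median 0.72), with averages of 10.87 to 13.28 log2 in WT and 12.34 to 13.40 log2 in KO mice. Macrophage markers, 5 of 9 with lower means, averaged 8.55 to 9.28 log2 in WT and 8.11 to 9.64 log2 in KO mice, and endothelial markers, also 5 of 9, 6.92 to 7.71 log2 and 7.18 to 7.84 log2. Of the markers outside the AF list, 0 of 12 for muscle, 2 of 12 for neutrophils, 1 of 9 for macrophages, 2 of 9 for endothelium, 0 of 4 for erythroid cells and 0 of 7 for nerve were highest in WT mouse 3.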

How the data were processed

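The authors isolated RNA from AF tissue, hybridised it to Mouse Clariom S arrays and, per the labels, normalized them by sst-RMA, which puts robust multi-array averaging after a transformation of the signal space, in the Transcriptome Analysis Console. The deposited values are log2 signal per probe set. The genome build behind the probe sets is not given in the sources used here, nor are slide or scan batches. Of 28846 probe sets, 6640 controls were left out and 22206 were tested, of which 19572 carry 1 gene symbol and 2634 none. The detection filter of the methods was replaced by the alternatives on low signal, as detection p-values are not in the table.

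KO minus WT was fitted by lmFit and eBayes (limma 3.58.1, R 4.3.3) over all tested probe sets, with Benjamini-Hochberg adjustment over all of them. Permutation tests are 2-sided and exact, over 35 splits or 40320 orders of the mice. Related genes were named as the 4 smallest p of each list, and genes like *Fos* and *Fosb* as the 5 highest r. Where a gene had several probe sets, that with the highest mean was used. Members and lists were chosen with earlier results of these data known. Promoters are those of RefSeq, GRCm38.p6 (8 of 9 members matched by symbol). The fit was tested on simulated data, and the permutation test on a fixed set of values with a known p. The number of arrays limits the precision.

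As alternatives, 2 filters on low signal, quantile normalization, centring on medians, trend and robust priors, array weights, an unpaired t-test, the control contrast as a covariate, other cutoffs, and leaving out each mouse were tried.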

Additional observations from a re-analysis of the deposited data

Results flagged for a closer look

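*Fosb* in KO mouse 9 stood at 9.06 log2, apart from 10.48 to 10.68 log2 in the other KO mice. Its gap took 0.873 of the range of the KO group, beyond the critical value of Dixon's test for 4 samples. Of 18 groups tested (9 members in WT and in KO mice) this was the only 1, where chance gives about 1 in 20. WT mouse 3 did not pass this test for any member.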

How the results depend on the processing

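Of the 16 alternatives with a fold change for each gene, none turned the direction of any of the 9 members. The 2 members at the cutoff became 0 by quantile normalization, the unpaired t-test, the control contrast as a covariate or an adjusted p at most 0.05, 1 with array quality weights (*Fosb*), and 0 to 2 with a mouse left out. *Fosb* did not reach the cutoff by quantile normalization (log2 fold change −2.41), the t-test (−2.60) or with the covariate (−2.19), and it ran from −3.02 to −1.66 with a mouse left out. The median of the members ran from −1.53 to −0.59, and was −0.67 with the covariate. The 3 related genes at the cutoff became 13 at the wider cutoff of 0.05 for the unadjusted p, 7 with array weights, 5 with trend and robust priors, 1 by the t-test, 1 with the covariate, 0 after adjustment, and 1 to 8 with a mouse left out. The 0 pairs in which *Fosb* differed from another member stayed at 0 in all 9 alternatives, which the smallest p of the permutation test made likely in advance. By the t-test, 0 of all probe sets had an adjusted p under 0.05 and 1051 an unadjusted p under 0.05. The causes were not tested. No paired analysis was possible because the genotypes share no replicate number. *Fosl1* lay near background (above it in 7 of 8 arrays), which limits its fold change. The same limit holds for *Jund*, which was 0.46 to 1.83 log2 above background.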
